A study of Mus musculus with 9 samples.

Results

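Csf1r, the gene for the receptor that the drug in this experiment blocks, was followed together with its ligands Csf1 and Il34 and with related receptors of myeloid growth factors. These were Csf2ra, Csf2rb and Csf2rb2 (chains of the receptors for CSF2, interleukin-3 and interleukin-5), Csf3r (the receptor for CSF3) and the receptor kinases Flt3 and Kit. The 9 genes were picked by symbol from the 31053 genes of the deposited matrices, and all 9 were found. No measured value entered the rule, but the genes were chosen with earlier results of these data known.

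CSF1R is a receptor tyrosine kinase on the cell surface. Binding of either ligand, CSF1 or IL-34, switches on its kinase, and microglia, the resident macrophages of the brain, depend on that signal to survive and divide. FLT3 and KIT are receptor kinases like CSF1R, whereas the receptors for CSF2 and CSF3 are cytokine receptors without a kinase of their own, which signal through JAK kinases. CSF2, CSF3, FLT3 ligand and KIT ligand serve other branches of blood cell development: granulocytes and monocytes, neutrophils, dendritic cells, and stem and mast cells respectively. Part of this family shares a receptor chain, since the product of Csf2rb pairs with the CSF2, interleukin-3 and interleukin-5 receptor chains, while mice carry the extra copy Csf2rb2, whose product serves interleukin-3.

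The genes lie apart in the mouse genome (GRCm38), each annotated as protein coding. Csf1r spans chr18:61100598-61132149 on the plus strand. The ligand genes Csf1 and Il34 lie at chr3:107741048-107760469 and chr8:110741829-110805924, both on the minus strand. Csf2rb (chr15:78325752-78353847, plus) and its copy Csf2rb2 (chr15:78282507-78305721, minus) are neighbours facing opposite ways. Over the last 500 bases of their annotated transcripts, the part a 3′ library reads, 0 of 1538 stretches of 50 bases from Csf2rb matched Csf2rb2, so their UMIs could be told apart there. Csf2ra lies at chr19:61223957-61228429 (minus), Csf3r at chr4:126024550-126044440 (plus), Flt3 at chr5:147330741-147400489 (minus) and Kit at chr5:75574916-75656722 (plus).

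CD11b+ cells were sorted from brains without cerebellum of C57BL/6 mice, all adult females of one age, and profiled by droplet single-cell RNA sequencing of 3′ ends. Ctrl libraries (n = 3) each came from 1 untreated brain. D0 libraries (n = 3) each came from 2 pooled brains after 14 days on a diet with 1200 mg/kg PLX5622, a CSF1R kinase inhibitor. D2 libraries (n = 3) came from 2 pooled brains after the same 14 days followed by 2 days of control diet. No mouse carried a genetic alteration in these labels, all cells passed myelin removal and the same CD11b gate, and cells that the drug had removed were not sampled. The libraries held 20257894 to 61230741 unique molecular identifiers (UMIs, counted molecules), with a median of 4810 to 9243 UMIs in the cells kept. At most 8 barcodes were shared between any pair of libraries. D2-3 stood apart: 91.2% of its microglia-like cells were dividing against 15.5% and 22.8% in D2-1 and D2-2, and 37.3% of its barcodes exceeded the upper UMI limit. The study left this library out. The tests below used the other 8 libraries, and D2-3 is given beside them.

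Cells were clustered without the 9 genes and named from marker genes. The 8 libraries gave 22125 microglia-like, 1173 neutrophil-like, 903 endothelial-like, 592 dendritic cell-like, 581 border-associated macrophage-like, 499 monocyte-like, 303 mural-like and 158 lymphoid-like cells, beside smaller classes and 1981 cells of few UMIs that stayed unnamed. The 12 microglial markers, P2ry12 and Tmem119 among them, were all detected in the microglia-like cells of each group. Their summed level was 31642 to 36437 CPM (counts per 1000000 UMIs of the summed cells) in Ctrl, 23016 to 25176 in D0, 19545 to 20628 in D2-1 and D2-2, and 9657 in D2-3. Detection alone does not set this class apart, since the 12 markers were also detected in border-associated macrophage-like cells.

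RefSeq promoter windows (GRCm38.p6) were at hand for 6 of the 9 genes. Both strands of the 250 bases before each start were searched for GAGGAA, the core of the site of the myeloid factor PU.1, and for GGGA followed by any 2 bases and TTCC, an NF-kB site. Across 32817 windows of that length, 23.3% held GAGGAA and 1.21% held the NF-kB site. Windows of 3 genes are shown because their levels in microglia-like or neutrophil-like cells carry the results below: Csf1 (chr3:107760470-107760719, minus) with its NF-kB match in capitals, read here from the opposite strand, and Csf2ra (chr19:61228419-61228668, minus) and Csf3r (chr4:126024409-126024658, plus) with GAGGAA in capitals.
Csf1: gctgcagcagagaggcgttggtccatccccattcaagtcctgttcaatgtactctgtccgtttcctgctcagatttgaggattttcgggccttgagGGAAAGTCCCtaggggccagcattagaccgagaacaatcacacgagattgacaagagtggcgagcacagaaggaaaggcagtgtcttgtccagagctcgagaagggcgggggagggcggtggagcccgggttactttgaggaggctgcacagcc
Csf2ra: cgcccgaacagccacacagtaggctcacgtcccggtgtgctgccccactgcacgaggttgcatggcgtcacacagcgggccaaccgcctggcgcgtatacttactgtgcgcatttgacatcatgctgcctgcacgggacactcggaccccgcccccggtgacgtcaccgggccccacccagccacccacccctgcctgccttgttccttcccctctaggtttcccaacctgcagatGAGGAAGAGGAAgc
Csf3r: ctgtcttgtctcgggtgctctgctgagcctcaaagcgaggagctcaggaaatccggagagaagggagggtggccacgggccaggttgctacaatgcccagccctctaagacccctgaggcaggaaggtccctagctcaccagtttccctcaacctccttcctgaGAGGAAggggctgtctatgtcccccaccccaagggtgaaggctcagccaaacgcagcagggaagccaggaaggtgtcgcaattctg
The Csf1 match began 154 bases before the RefSeq start, the pair in Csf2ra 14 and 8 bases before it, and that in Csf3r 86 bases before it. For Csf2ra and Csf3r the RefSeq start lies inside the gene span given above, which comes from another annotation (GENCODE). By that span the GAGGAA of Csf3r and the nearer one of Csf2ra lie within the gene, and the other one of Csf2ra crosses its edge. Csf3r also held an NF-kB match on the opposite strand, 129 bases before its start. GAGGAA was present in the Csf2rb2 and Kit windows as well. These matches describe letters in a window and not binding.

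Across cell classes, the receptor and its ligands were spread over different cells. Levels here are CPM of the summed UMIs of a class in a library, with the mean over the libraries that held at least 20 of its cells. They are a description with no test, and since a 3′ count is not scaled by length, genes are not ranked against each other. Csf1r was highest in microglia-like cells, at 2592 ± 534 CPM (SD, n = 8 libraries), which held 94.4% of its 487439 UMIs. Among the named classes, border-associated macrophage-like cells followed with 1651 ± 985 CPM (n = 5), and monocyte-like cells with 649 ± 332 CPM (n = 7). The ranges of neighbouring named classes in this order overlapped throughout. The unnamed cells of few UMIs stood at 1856 ± 508 CPM (n = 8). These means mix the groups unequally. In Ctrl alone, microglia-like cells stood at 3142 ± 450 CPM and border-associated macrophage-like cells at 2305 ± 571 CPM (n = 3 each).

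Csf1r was also counted in endothelial-like and neutrophil-like cells, and its level there was set beside that of the 12 microglial markers. In endothelial-like cells Csf1r stood at 3.03% to 9.84% of its microglia-like level in the 8 libraries, beside a median of 2.09% to 9.39% for the 12 microglial markers. In neutrophil-like cells Csf1r stood at 36.6% of the microglia-like level in Ctrl-2, where the markers stood at 31.6%, and at 3.53% in D2-2, where they stood at 3.17%. Both were highest in Ctrl-2 and lowest in D2-2, but Csf1r lay above the marker median in every library with at least 20 neutrophil-like cells. In each of these libraries Csf1r also lay within the range of the 12 markers, such as 28.7% to 46.2% in Ctrl-2. It stood at 24.7% beside 17.5% in D0-1, at 9.47% beside 6.91% in D0-3 and at 17.4% beside 8.43% in D2-3. In neutrophil-like cluster 14, the Csf1r UMIs numbered 498 in Ctrl-2, where 45 of 87 cells had one, and 100 in Ctrl-3, where 6 of 19 cells had one. In Ctrl-1 they numbered 4, in 3 of 12 cells. The source of these UMIs was not tested.

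Csf1 had a broader pattern. Its mean was 85.3 ± 37.1 CPM in microglia-like cells (n = 8), 117 ± 85.6 CPM in neutrophil-like cells (n = 7) and 46.2 ± 15.7 CPM in endothelial-like cells (n = 8). Border-associated macrophage-like and monocyte-like cells stood at 11.9 ± 11.8 and 12.9 ± 17.4 CPM. The endothelial-like level amounted to 25.7% to 88.8% of the microglia-like level, above the median of the microglial markers in each of the 8 libraries.

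The lymphoid-like class had the highest mean of Csf1, 276 ± 253 CPM (n = 4), and a few barcodes supplied most of it. By library it was 0 CPM in Ctrl-2, 384 to 573 CPM in D0-2 and D0-3, and 149 CPM in D2-2. Among 158 lymphoid-like cells, 17 barcodes with a UMI of Mcpt8, a protease gene of basophils, held 178 of 224 Csf1 UMIs. Of these, 49 lay in D0-2 (7 barcodes), 117 in D0-3 (7 barcodes), 12 in D2-2 (2 barcodes) and 0 in Ctrl-2 (1 barcode). The same 17 barcodes held 46 of 78 Csf2rb UMIs and 30 of 38 Csf2rb2 UMIs, and no Csf1r or Csf2ra UMI. Mcpt8 was chosen after these values were seen. In the 102 barcodes with a UMI of Ncr1, a natural killer cell receptor gene, 3 Csf1 UMIs and no Csf2rb UMI were found.

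Among the sorted cells Il34, the other ligand of CSF1R, was found mainly in mural-like cells, the contractile cells of vessel walls that came through the sort. The sort was for CD11b+ cells and no class of neurons was found, so the sources of Il34 in the whole brain were not measured. Mural-like cells held 200 of its 210 UMIs, or 95.2%. Its level there was 144, 169 and 155 CPM in Ctrl-1 to Ctrl-3, 106, 99.2 and 205 CPM in D0-1 to D0-3, 89.6 and 156 CPM in D2-1 and D2-2, and 246 CPM in D2-3. The groups overlapped, and 5 to 75 cells lay behind each value. In every other class with 2 or more libraries of at least 20 cells, the mean over libraries was at most 0.798 CPM. Single libraries of these reached up to 4.04 CPM (dendritic cell-like cells of D2-2, 4 UMIs), with 2 UMIs in the border-associated macrophage-like cells of Ctrl-1, and microglia-like cells had 1 Il34 UMI in 22125 cells. Among mural-like cells, the 101 with a UMI of Kcnj8, a pericyte potassium channel gene, had 298 CPM of Il34 against 78.1 CPM in the others, whereas cells with a UMI of Acta2, smooth muscle actin, had 94.0 CPM against 265 CPM.

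The CSF2 receptor chains were found on all myeloid classes. Csf2ra, the chain that binds CSF2, was highest in monocyte-like cells at 309 ± 44.2 CPM (n = 7), followed by dendritic cell-like cells at 228 ± 35.1 CPM (n = 6), neutrophil-like cells at 200 ± 43.6 CPM (n = 7) and microglia-like cells at 97.7 ± 18.1 CPM (n = 8). Its level in endothelial-like cells, 13.8 ± 7.88 CPM, did not overlap the microglia-like range. Csf2rb, the signalling chain, stood at 140 ± 85.4 CPM in neutrophil-like, 105 ± 23.4 CPM in monocyte-like, 99.7 ± 19.8 CPM in dendritic cell-like and 57.4 ± 9.78 CPM in microglia-like cells. Csf2rb2 was low in these classes, at 17.3 ± 2.15 CPM in microglia-like cells.

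Csf3r was highest in neutrophil-like cells, the cells whose production CSF3 drives, at 925 ± 665 CPM (n = 7). Microglia-like cells nevertheless stood at 215 ± 40.1 CPM (n = 8) and, being numerous, held 85.8% of the 43308 Csf3r UMIs. Dendritic cell-like cells had 25.6 ± 6.57 CPM. In endothelial-like cells Csf3r reached 4.14% to 14.0% of the microglia-like level.

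Flt3 and Kit were highest in dendritic cell-like cells. Flt3, the receptor that dendritic cells need to develop, had 347 of its 487 UMIs (71.3%) there, at 53.5 ± 14.9 CPM (n = 6), followed by lymphoid-like cells at 10.3 ± 20.7 CPM and monocyte-like cells at 9.08 ± 5.65 CPM. By library its dendritic cell-like level was 29.5, 59.7 and 104 CPM in Ctrl-1 to Ctrl-3 (24, 12 and 16 cells) and 69.3, 62.3 and 42.9 CPM in D0. It was 53.5 and 63.6 CPM in D2-1 and D2-2, and 38.8 CPM in D2-3. Ctrl-2 and Ctrl-3 fell short of the 20 cells asked for in the means. Ctrl overlapped D0 and D2 only through those libraries, since Ctrl-1 lay below every D0 and D2 library. Kit, the stem cell factor receptor, had 90 of 156 UMIs (57.7%) in the same class, at 16.1 ± 4.53 CPM.

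**Figure D1:**
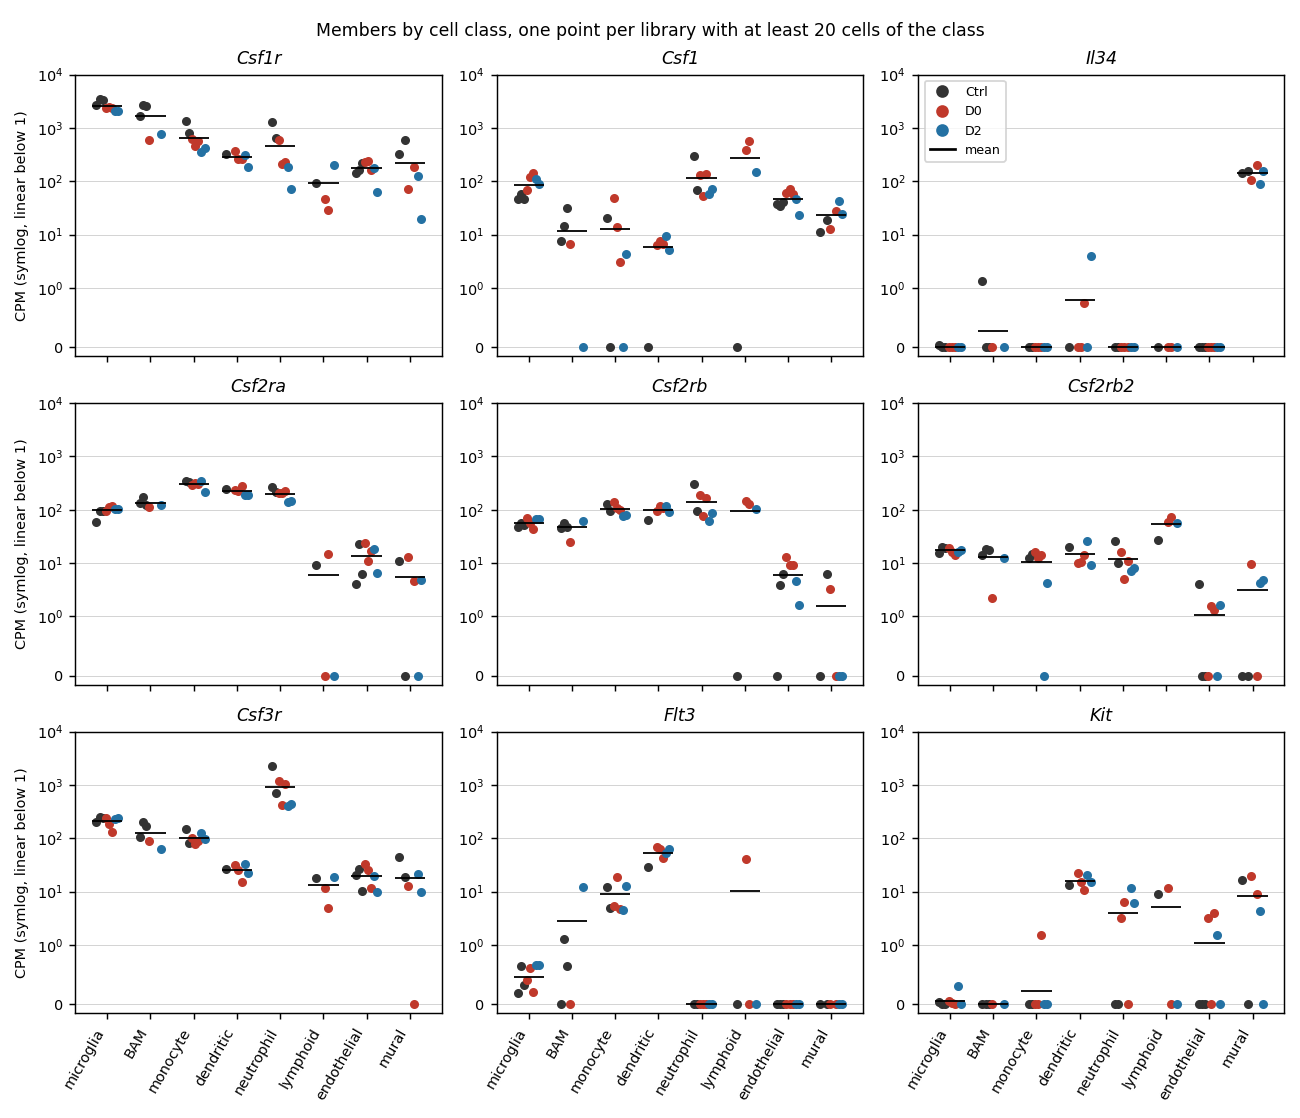
Levels of the 9 genes by cell class, in CPM on a log scale with 1 point per library of at least 20 cells. Csf1r peaks in microglia-like cells at a mean of 2592 CPM, Il34 in mural-like cells at 143 CPM, Csf3r in neutrophil-like cells at 925 CPM and Flt3 in dendritic cell-like cells at 53.5 CPM.

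Over the means of 10 cell classes, the genes most like Csf1r were Grn (Pearson r = 0.98 on log2 values), Lair1 (0.98), Fcgr1 (0.98), Cx3cr1 (0.96) and Rgs10 (0.96). The nearest to Il34 were Lmod1, Ctnna3 and Cspg4 (r = 1.00 for each), to Flt3 were Kmo, Btla and Irf4 (0.97, 0.96 and 0.96), to Csf3r were Sh2b2, Arid3a and Trpm2 (0.95, 0.95 and 0.92), and to Csf2ra were Lyz2, Tlr2 and Rab32 (0.97, 0.96 and 0.96). For Csf2rb they were Rassf5, Arhgap9 and Ptpre (0.98 for each), for Csf2rb2 Gm20186, Psd4 and Fkbp5 (0.95, 0.95 and 0.93), and for Csf1 Ube2h, Zfp654 and Khnyn (0.91, 0.84 and 0.84). Over the 8 libraries of microglia-like cells, Csf1r was followed most closely by Serinc3 (0.99), Tcn2 (0.99), Lpcat3 (0.99), Ptp4a3 (0.99) and Cnpy3 (0.98). The class means come from the same libraries, and the libraries differ in group and depth. Those of astroglial-like and of ependymal- or choroid plexus-like cells rest on 1 library each. Outside mural-like cells the mean of Il34 was at most 3.86 CPM, so its r is set by 1 class.

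The other ligands of this family were counted unevenly in the sorted cells. No Il3 or Il5 UMI was counted, Csf3 had 2 UMIs, and 10 of 14 Csf2 UMIs lay in lymphoid-like cells. Kitl, the KIT ligand, had 3257 UMIs in endothelial-like cells, or 762 CPM pooled over the libraries, and stood at 73.5 CPM in mural-like cells. In microglia-like cells it had 3417 UMIs, or 19.4 CPM. Flt3l had 455 UMIs in microglia-like cells, or 2.59 CPM, and stood at 14.0 CPM in endothelial-like cells.

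The next comparison asked how microglia-like cells that outlasted the inhibitor, and those of early repopulation, differed from untreated microglia-like cells in these genes. Summed UMIs per library were tested across all 12404 genes by edgeR's quasi-likelihood test, with Benjamini-Hochberg adjustment over all of them. In D0 the test called 19.7% of all genes (12.3% higher, 7.43% lower), and in D2 18.6% (10.8% higher, 7.73% lower). Of the 9 members, 7 were frequent enough to be tested. Csf1 was higher in D0 and in D2, Csf1r was lower in D2, and the other tested members passed in neither, so 1 of 7 was called in D0 and 2 of 7 in D2, counts too small to set apart from those of all genes. D0 and D2 share the Ctrl libraries.

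Csf1r remained abundant in the cells that outlasted its inhibitor. Its level was 2632, 3483 and 3310 CPM in Ctrl-1 to Ctrl-3, 2369, 2417 and 2402 CPM in D0-1 to D0-3, 2061 and 2060 CPM in D2-1 and D2-2, and 924 CPM in D2-3. The groups did not overlap, with the D0 libraries below each Ctrl library and the D2 libraries below each D0 library. The ratio of mean CPM to Ctrl was 0.763 in D0 and 0.656 in D2.

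After scaling of the libraries by edgeR's TMM, which takes account of shifts in the abundant genes, the log2 fold change of Csf1r was -0.19 (SE 0.14, adjusted p = 0.353) in D0, and in D2 -0.51 (SE 0.15, adjusted p = 0.0476). With no scaling beyond the total count it was -0.39 in D0 (adjusted p = 0.0265) and -0.61 in D2 (adjusted p = 0.00889). That choice moved the share of calls that were higher: in D0 it was 29.9% in place of 62.3%, and in D2 42.6% in place of 58.3%. The median log2 fold change over all genes was -0.26 in place of -0.05 in D0, and -0.14 in place of -0.03 in D2. D2 minus D0 was -0.32 (SE 0.15, quasi-likelihood test with unadjusted p = 0.0677 and adjusted p = 0.699). The D2 call was lost when any 1 of Ctrl-2, Ctrl-3, D0-1, D0-2, D0-3, D2-1 or D2-2 was left out (log2 fold change -0.40 to -0.54) and with D2-3 included (-0.71, adjusted p = 0.108).

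The version of Cell Ranger, the program that counted the reads, moved with the groups. The file headers named version 3.0.2 for Ctrl-1, D0-1 to D0-3, D2-1 and D2-2, and gave the remaining libraries (Ctrl-2, Ctrl-3, D2-3) version 3.1.0. Within version 3.0.2, Csf1r was 2632 CPM in Ctrl-1, against 2369 to 2417 CPM in D0 and 2060 to 2061 CPM in D2. With the version as a term, the D0 value of Csf1r was 0.14 and the D2 value -0.17 (adjusted p = 0.459 for each), Csf1 was 1.58 in D0 (adjusted p = 0.0382) and 1.30 in D2 (adjusted p = 0.0828), and Csf2ra was 1.17 in D0 (adjusted p = 0.00558) and 1.01 in D2 (adjusted p = 0.0129). That fit estimates the version from the Ctrl libraries alone, with Ctrl-1 on one side.

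Csf1, the ligand gene, was the member with the largest rise. Its level was 45.6, 56.4 and 46.2 CPM in Ctrl-1 to Ctrl-3, 69.4, 121 and 145 CPM in D0, and 109 and 89.4 CPM in D2-1 and D2-2. Each D0 and D2 library of these lay above each Ctrl library, while D2-3, at 23.6 CPM, lay below them. The log2 fold change was 1.39 (SE 0.25, adjusted p = 0.00511) in D0 and 1.11 (SE 0.28, adjusted p = 0.0211) in D2. D2 minus D0 was -0.28 (95% interval -0.83 to 0.27, adjusted p = 0.782). The D0 call was lost with D2-3 included (1.41, adjusted p = 0.146). The D2 call was lost with D2-3 included (0.75, adjusted p = 0.291), and without Ctrl-3, D2-1 or D2-2 (1.02 to 1.22).

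The share of cells with a Csf1 UMI moved in the same direction. With each cell thinned to 2000 UMIs, 5.87% ± 0.834 of microglia-like cells had one in Ctrl (n = 3), 12.1% ± 4.77 in D0 (n = 3) and 10.7% ± 2.32 in D2 (n = 2), with no overlap with Ctrl. The exact permutation p (two-sided) was 0.1 for D0 and 0.2 for D2, the smallest these numbers allow. D0 overlapped Ctrl with cells thinned to 1000 UMIs (lowest D0 library 4.25%, highest Ctrl library 4.44%, exact permutation p = 0.2) and with cells not thinned (13.7% and 15.6%, exact permutation p = 0.2). Endothelial-like cells pooled over the 8 libraries, D0 and D2 included, gave 6.97%. The Ctrl share of Csf1 was not above that pooled share, and endothelial-like cells of Ctrl alone were not set beside it. For Csf1r the shares were 99.5% ± 0.469, 98.2% ± 0.474 and 97.5% ± 0.193, with the same permutation p-values. The pooled endothelial-like cells gave 13.8%.

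Of the CSF2 receptor chains, Csf2ra was 58.4, 95.1 and 95.7 CPM in Ctrl, 94.3, 112 and 119 CPM in D0 and 103 and 104 CPM in D2-1 and D2-2. D0-1 fell within the Ctrl range, and the D2 libraries lay above it. The log2 fold change was 0.58 (SE 0.21, adjusted p = 0.0808) in D0 and 0.42 (SE 0.23, adjusted p = 0.246) in D2. With the replicate number as a block the D0 value was 0.61 (adjusted p = 0.0212), and DESeq2 gave 0.61 (adjusted p = 0.0294). Csf2rb was 47.0, 56.6 and 52.2 CPM in Ctrl, 68.6, 57.1 and 42.8 CPM in D0 and 67.5 and 67.0 CPM in D2-1 and D2-2. Its log2 fold change of 0.48 in D2 (SE 0.19, adjusted p = 0.108) did not pass, but did so without D0-3 (0.48, adjusted p = 0.0484). Csf2rb2 stayed between 14.0 and 19.9 CPM in the 8 libraries, with log2 fold changes of 0.06 (95% interval -0.27 to 0.39) in D0 and -0.04 (95% interval -0.41 to 0.33) in D2.

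Csf3r was 205, 251 and 237 CPM in Ctrl, 241, 186 and 131 CPM in D0, and 228 and 238 CPM in D2-1 and D2-2. The D0 libraries ranged from within the Ctrl values to well below them. Its log2 fold change was -0.12 (95% interval -0.50 to 0.27) in D0 and 0.12 (95% interval -0.31 to 0.55) in D2. In D2-3 Csf3r stood at 24.7 CPM, below every other library.

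**Figure D2:**
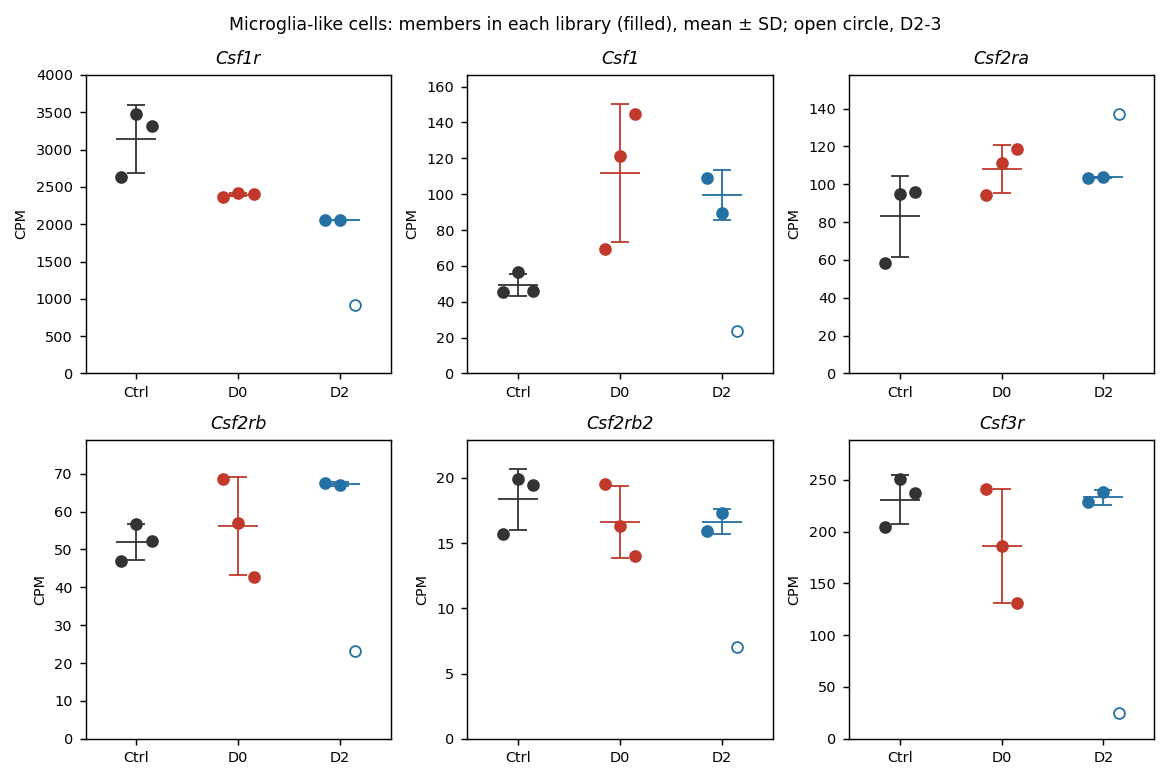
Levels of the members in microglia-like cells by library, in CPM, with 1 point per library and the mean ± SD of each group (D2-3 as an open circle outside the mean). Csf1r lies at 2632 to 3483 CPM in Ctrl and 2369 to 2417 CPM in D0, Csf1 rises from 45.6 to 56.4 CPM in Ctrl to 69.4 to 145 CPM in D0, and D2-3 lies low for Csf1r at 924 CPM and Csf3r at 24.7 CPM.

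Flt3, Kit and Il34 were near 0 in microglia-like cells. Flt3 had 80 UMIs in the 8 libraries, at 0.19 to 0.66 CPM. Kit had 9 UMIs in 5 barcodes, and 1 barcode of D2-1 held 5 of them together with 26 UMIs of Cpa3, 82 of Cma1 and 17 of Hdc, which are mast cell genes, and none of Csf1r or P2ry12. Summed over all kept myeloid cells, Flt3 was higher by 1.89 in D0 (log2, adjusted p = 0.0261) and 1.99 in D2 (adjusted p = 0.0316), and Kit by 3.17 (adjusted p = 0.0031) and 3.39 (adjusted p = 0.00357). Dendritic cell-like cells numbered 12 to 24 in a Ctrl library, 89 to 182 in D0 and 68 and 96 in D2-1 and D2-2. In such a sum, more cells of a type and more RNA per cell cannot be told apart.

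Markers of other cells moved with the groups inside the microglia-like sums. The 10 neutrophil markers summed to 7.13 to 18.9 CPM in Ctrl, 56.9 to 208 CPM in D0 and 52.2 to 199 CPM in D2-1 and D2-2, and the 10 dendritic cell markers to 260 to 362, 136 to 209 and 105 to 139 CPM. The 11 monocyte markers summed to 10.4 to 12.1, 16.9 to 25.1 and 28.0 to 37.6 CPM, the 10 border-associated macrophage markers to 212 to 241, 119 to 153 and 124 to 128 CPM, and the 7 astroglial markers to 169 to 184, 82.7 to 106 and 86.4 to 102 CPM, in the same order of groups. Their part in the differences of the members was not tested.

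Within microglia-like cells, the study set apart a subset by Lgals3, the gene for galectin-3, and a rule of the same form (a log-normalized level above the mean plus 1 SD) was applied here. The limit was set here over the kept myeloid cells and only microglia-like cells were split, whereas the study took its subset from all its clusters, so the cells are not the same population. Lgals3-positive cells were 0.558% to 0.864% of microglia-like cells in Ctrl, 2.09% to 4.85% in D0, and 5.34% and 9.02% in D2-1 and D2-2. In the 7 libraries with at least 20 such cells, both sums of a library were compared with the library as a block. The test called 18.6% of 11808 genes (9.19% higher, 9.42% lower), and 4 of the 6 members tested.

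Csf1 differed most. In Lgals3-positive cells it stood at 157 and 420 CPM in Ctrl-1 and Ctrl-3, 320, 327 and 425 CPM in D0, and 255 and 279 CPM in D2-1 and D2-2. In the other cells of the same libraries it stood at 44.7 and 42.1, at 53.2, 109 and 138, and at 99.2 and 67.8 CPM. Csf1 was thus higher in Lgals3-positive cells in 7 of 7 libraries, with the 2 sets of values not overlapping (means 312 ± 94.1 and 79.2 ± 36.8 CPM), and the log2 difference was 2.03 (SE 0.15, adjusted p = 5.63e-09). In D2-3 the values were 22.1 and 23.7 CPM.

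Csf1r went the other way. Its mean was 1758 ± 236 CPM in Lgals3-positive cells and 2494 ± 413 CPM in the others, and it was lower in 7 of 7 libraries (log2 difference -0.48, SE 0.05, adjusted p = 3.59e-07). Csf2ra was higher in 6 of 7 libraries (136 ± 32.4 against 96.1 ± 18.9 CPM, log2 difference 0.52, SE 0.09, adjusted p = 0.000159). Csf3r was lower in 6 of 7 (172 ± 37.9 against 212 ± 41.6 CPM, -0.30, SE 0.08, adjusted p = 0.00745), a call lost without D0-1 (-0.24, adjusted p = 0.0523). Csf2rb (0.20, adjusted p = 0.195) and Csf2rb2 (0.13, adjusted p = 0.681) did not pass.

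Leaving the Lgals3-positive cells out of the group comparison kept Csf1 higher in D0 (log2 fold change 1.29, adjusted p = 0.0218), while the D2 value of 0.91 no longer passed (adjusted p = 0.104).

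Dividing cells, defined by UMIs of at least 2 of 8 mitotic genes, were 0.232% to 0.401% of microglia-like cells in Ctrl, 8.04% to 22.7% in D0, and 15.5% and 22.8% in D2-1 and D2-2. The 5 libraries of D0 and D2 were compared, again with the library as a block, and 43.4% of 11689 genes were called (21.7% higher and 21.7% lower). Of the 6 members tested, 4 passed, and Csf3r differed most. It was 126, 119 and 79.9 CPM in the dividing cells of D0 and 199 and 132 CPM in those of D2-1 and D2-2, against 258, 210 and 150, and 235 and 281 CPM in the other cells. It was lower in 5 of 5 libraries, by 0.80 on the log2 scale (log2 difference -0.80, SE 0.11, adjusted p = 0.000189).

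Csf2ra was higher in dividing cells in 5 of 5 libraries (127 ± 13 against 99.99 ± 7.70 CPM, log2 difference 0.35, SE 0.07, adjusted p = 0.00247). In D2-3, outside this test, Csf2ra went the other way, at 132 CPM in dividing and 222 CPM in other cells. Csf1 was lower in 5 of 5 (88.0 ± 23.8 against 113 ± 31.7 CPM, -0.34, SE 0.08, adjusted p = 0.00688), and so was Csf1r (2009 ± 175 against 2332 ± 205 CPM, -0.20, SE 0.07, adjusted p = 0.0323). The Csf1r call was lost without D0-1, D0-2, D0-3 or D2-2 (-0.16 to -0.20), and both it and the Csf2ra call were lost with D2-3 included (-0.18, adjusted p = 0.158, and 0.25, adjusted p = 0.0705). Csf2rb (-0.24, adjusted p = 0.11) and Csf2rb2 (-0.22, adjusted p = 0.146) did not pass, though without D2-1 both did (-0.38, adjusted p = 0.00136, and -0.31, adjusted p = 0.0272).

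**Figure D3:**
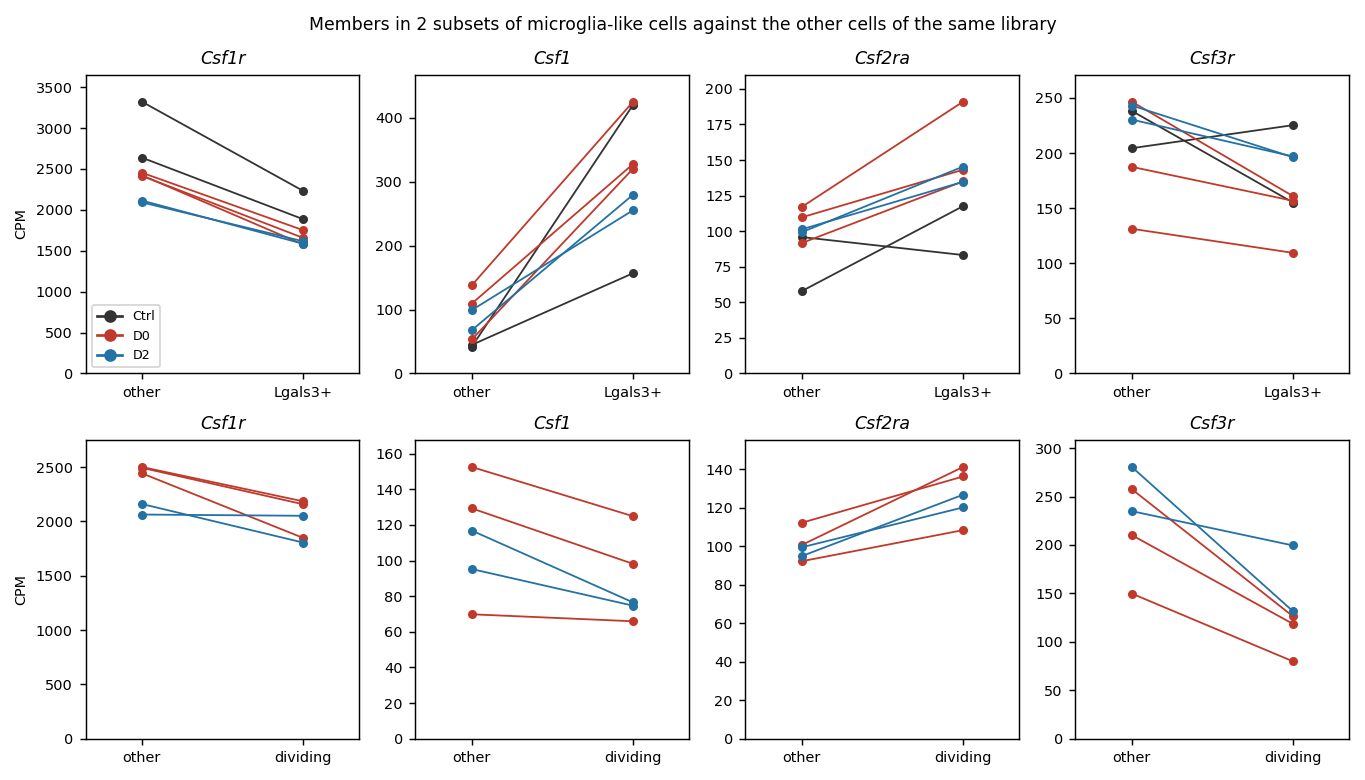
Members in Lgals3-positive and in dividing microglia-like cells against the other microglia-like cells of the same library, in CPM, with a line joining the pair of values of each library. Csf1 lies higher in Lgals3-positive cells in 7 of 7 libraries, and Csf3r lies lower in dividing cells in 5 of 5.

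The 11 clusters of microglia-like cells, drawn without the members, differed in both ligand and receptor levels. Mean Csf1 over libraries ran from 18.5 ± 5.71 CPM in cluster 7 (led by Crybb1 and Khdrbs3) to 208 ± 52.5 CPM in cluster 2 (led by Dusp2, Gadd45b, Cxcl2 and Il1b), with 171 ± 81.8 CPM in cluster 12 (led by Tnf and Egr1). Csf1r ran from 1994 ± 175 CPM in cluster 8 (Top2a, Mki67, n = 5 libraries) to 3264 ± 439 CPM in cluster 10 (Bank1, P2ry13, P2ry12, n = 3). Cluster 8 made up 0.146% of Ctrl, 11.5% of D0 and 13.8% of D2 cells and cluster 10 made up 12.2%, 0.325% and 0.0652%, so cluster and group cannot be told apart in these 2 values. Csf3r was highest in cluster 3 (Egr1, Fosb, Jun) at 311 ± 55.2 CPM, and Csf2ra in cluster 8 at 123 ± 16.4 CPM.

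The clusters were held unequally by the groups. Cluster 2, the one richest in Csf1, made up 1.37% of Ctrl, 26.6% of D0 and 12% of D2 microglia-like cells, whereas clusters 4, 5, 7 and 10 together with 12 made up most of Ctrl. Inside cluster 2, Csf1 was 178 ± 51.9 CPM in Ctrl, 228 ± 68.9 CPM in D0 (n = 3 each) and 224 ± 6.2 CPM in D2 (n = 2), and the ranges of Ctrl and D0 overlapped. Inside cluster 1 (led by Chst2 and Cd63, 33.5% of D0 cells), Csf1 was 60.3 ± 46.3, 40.0 ± 13.1 and 35.9 ± 4.95 CPM. Inside cluster 3 it was 82.8 ± 41.3, 122 ± 23.4 and 92.9 ± 10.1 CPM, and inside cluster 11 it was 91.0 ± 81.8, 125 ± 51.1 and 88.1 ± 30.3 CPM. The D0 mean lay above the Ctrl mean in clusters 2, 3 and 11 and below it in cluster 1. Within each of these clusters the D0 and Ctrl ranges overlapped, unlike the sums over all microglia-like cells, but the Ctrl values spread widely. The part of the cluster shares in the rise of Csf1 was not tested.

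Csf1r inside cluster 1 was 2762 ± 333 CPM in Ctrl, 2498 ± 89.8 CPM in D0 and 2121 ± 43.8 CPM in D2, and inside cluster 2 it was 2457 ± 396, 2197 ± 102 and 1862 ± 42.5 CPM. In both clusters the D0 libraries lay within the Ctrl range. In each of the 4 clusters with at least 20 cells in all 8 libraries (1, 2, 3 and 11), both D2 libraries lay below every Ctrl library for Csf1r. The clusters were drawn from these cells, so these are descriptions.

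**Figure D4:**
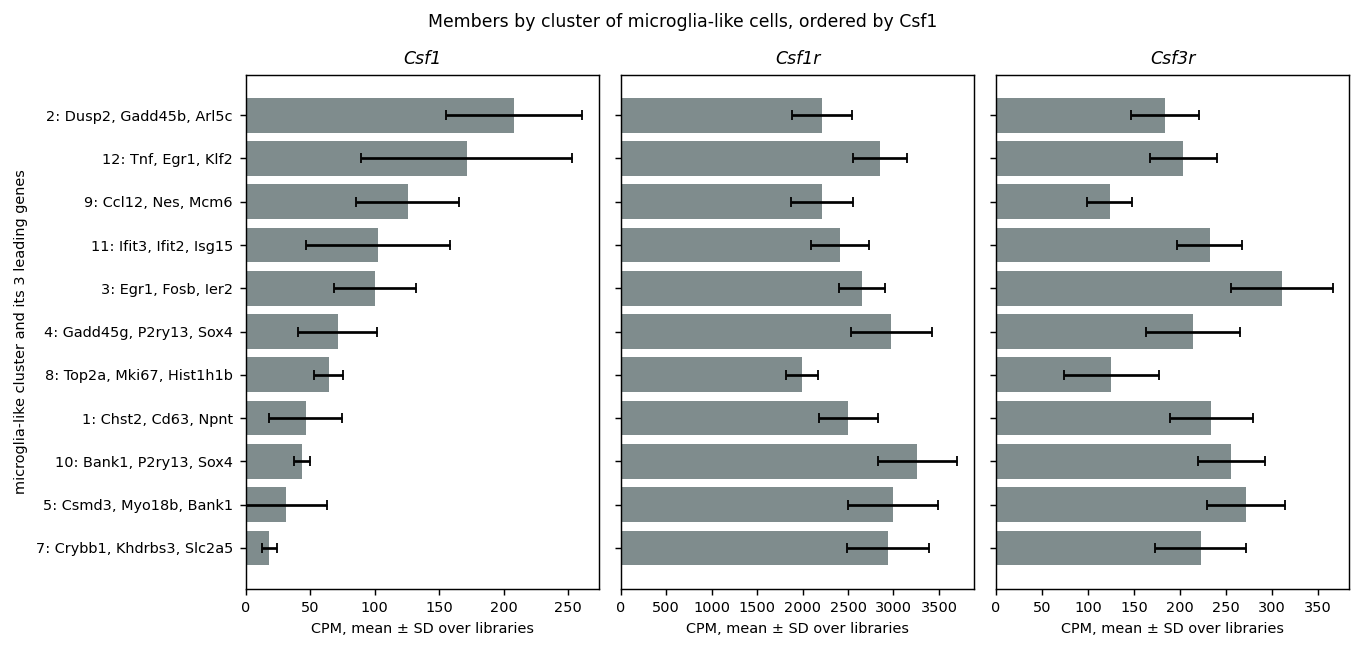
Csf1r, Csf1 and Csf3r across clusters of microglia-like cells, in CPM, as bars of the mean with the SD over libraries of at least 20 cells, in the order of Csf1. Csf1 spans 18.5 to 208 CPM between cluster means and Csf1r spans 1994 to 3264 CPM.

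Around the receptor, 67 further genes of the pathway were listed, of which 58 could be tested in microglia-like cells. In D0, 6 rose and 7 fell, and in D2, 5 rose and 7 fell, beside 19.7% of all genes called in D0 (12.3% higher, 7.43% lower) and 18.6% in D2 (10.8% higher, 7.73% lower). The 13 and 12 calls of 58 were near these shares. The median log2 fold change of the list was -0.03 and -0.08, beside -0.05 and -0.03 over all genes. The largest rise in both belonged to Il3ra, the interleukin-3 receptor chain that pairs with the products of Csf2rb and Csf2rb2. It was 3.62, 3.95 and 4.69 CPM in Ctrl, 13.6, 22.9 and 18.7 CPM in D0, 24.3 and 31.2 CPM in D2-1 and D2-2, and 18.4 CPM in D2-3, with no overlap with Ctrl. The log2 fold change was 2.39 (SE 0.24, adjusted p = 0.000155) in D0 and 2.87 (SE 0.26, adjusted p = 8.12e-05) in D2.

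Among kinases and adaptors, the Src family kinase gene Fyn rose in D0 (0.76, adjusted p = 0.0158) and D2 (0.80, adjusted p = 0.019). Fgr, another Src family kinase, rose in D2 (0.90, adjusted p = 0.0397). Pik3cg and Pik3r5, chains of one PI3-kinase, fell in D0 (-0.77 and -0.42, adjusted p = 0.0109 and 0.0269) and D2 (-0.98 and -0.86, adjusted p = 0.00638 and 0.00152), and Map2k1, the kinase MEK1, fell in D2 (-0.88, adjusted p = 0.00844). Of the brakes, Cish, a feedback inhibitor of cytokine receptors, rose in D0 (1.60, adjusted p = 0.019). Its counts were low in both groups, at 0.264 to 0.652 CPM in Ctrl, near 0, and at most 1.420 CPM in D0. Inpp5d, the phosphatase SHIP1, fell in D0 (-0.38, adjusted p = 0.0304), and Ptprc, which encodes CD45, rose in D2 (0.75, adjusted p = 0.0156).

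Of the 10 regulators of the Csf1r gene, Cebpb rose in D0 (0.96, adjusted p = 0.0312), while Sall1, a factor of microglial identity, and Fli1 fell in D0 (-0.57 and -0.41, adjusted p = 0.00481 and 0.019) and D2 (-0.80 and -0.56, adjusted p = 0.0015 and 0.00801). In D2 against D0, none of the 58 and none of the 12404 genes passed (edgeR); 840 genes had an unadjusted p under 0.05, and DESeq2 called 28.

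In Lgals3-positive cells 8 of the 58 rose and 7 fell, beside 9.19% and 9.42% of all genes. Fgr rose by 1.80 (adjusted p = 7.05e-05), Ets2 by 0.71 (adjusted p = 0.000651), Kitl by 0.61 (adjusted p = 0.00273), Fyn by 0.52 (adjusted p = 0.0439) and Pik3cb by 0.44 (adjusted p = 0.00551), all on the log2 scale. The largest falls were Gab1 (-0.52, adjusted p = 0.0335), Pik3cg (-0.51, adjusted p = 0.00659), Sall1 (-0.50, adjusted p = 5.25e-05), Pik3cd (-0.49, adjusted p = 0.00248) and Inpp5d (-0.45, adjusted p = 2.22e-05). In dividing cells 8 rose and 21 fell, beside 21.7% of all genes in each direction, with a list median of -0.11 beside -0.04 over all genes. Among the largest rises were Il3ra (0.81, adjusted p = 6.17e-05), Fyn (0.51), Akt1 (0.37) and Cebpb (0.34), and among the largest falls Trem2 (-0.66, adjusted p = 4.62e-05), Cebpa (-0.62), Gab1 (-0.60) and Src (-0.58), with adjusted p of at most 0.011 for those printed without one.

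Border-associated macrophage-like cells, which also depend on CSF1R, were tested in the libraries with at least 10 such cells. Their Csf1r was 1649, 2689 and 2578 CPM in Ctrl (83 to 191 cells), 582 CPM in D0-1 (72 cells), 1621 CPM in D0-2 (10 cells), and 1543 and 757 CPM in D2-1 and D2-2 (13 and 20 cells). Each D0 and D2 value lay below each Ctrl value. The log2 fold change was -0.88 (SE 0.48, adjusted p = 0.419) in D0 and -1.03 (SE 0.49, adjusted p = 0.521) in D2, and none of the 5 members tested passed, where the test called 0.576% of all genes in D0 and 0.0% in D2. Without D0-2 the D0 value was -1.84 (adjusted p = 0.018), with D0-1 then the only D0 library of this class and assumed to vary like the other groups. With the replicate number as a block no gene was called in D0. Without the filter on low counts the D2 value was -1.18 (adjusted p = 0.0252).

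The D0 effect on Csf1r was lower in border-associated macrophage-like than in microglia-like cells by 0.89 on the log2 scale (difference -0.89, SE 0.32, unadjusted p = 0.00999, adjusted p = 0.181), where 2.85% of all genes passed (1.11% with a positive and 1.74% with a negative difference). The D2 difference was -0.59 (SE 0.32, adjusted p = 0.669), where 0.67% passed (0.127% and 0.543%). Neither passed across all genes. Both differences came from a fit of the classes together over 7 libraries, without D0-3. They are therefore not the gap between the log2 fold changes of each class tested alone, -0.88 and -0.19 for Csf1r in D0. The SE of the D0 difference was smaller than the SE of 0.48 for border-associated macrophage-like cells alone. Its p-values therefore do not measure the spread of that class on its own. The median difference over all genes was -0.14 in D0 and -0.27 in D2. Without D0-2 the D0 difference of Csf1r was -1.56, under the same assumption for D0-1, the lone D0 library of border-associated macrophage-like cells.

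Neutrophil-like cells held 2 clusters that differed in the CSF3 receptor. Cluster 14 (735 cells, led by Cxcr2 and Slpi, genes of mature neutrophils) had a Csf3r level of 1617 to 2248 CPM in Ctrl, 1263 to 1798 CPM in D0, 1120 and 1499 CPM in D2-1 and D2-2, and 1510 CPM in D2-3. Cluster 16 (438 cells, led by Camp, Ngp and Ltf, granule genes of immature neutrophils) had 91.7 to 159 CPM in the 6 of these 8 libraries that held 10 or more of its cells, and 204 CPM in D2-3. Csf1 and Csf2rb followed Csf3r, at 225 and 222 CPM in cluster 14 pooled over libraries and 4.08 and 39.8 CPM in cluster 16, while the 32 Kit UMIs of the class all lay in cluster 16.

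Over the whole class, Csf3r was 2248 and 710 CPM in Ctrl-2 and Ctrl-3, 1202, 420 and 1056 CPM in D0, and 397 and 445 CPM in D2-1 and D2-2. Ctrl-1 had 15 such cells and was left out. The D2 values lay below both Ctrl values and the D0 values spread across them. The log2 fold change was -0.47 (SE 0.45, adjusted p = 0.763) in D0 and -1.39 (SE 0.51, adjusted p = 0.161) in D2. Cluster 16 supplied 0.0% of the class in Ctrl-2, 42.4% in Ctrl-3, 16.5% to 48.1% in D0 and 48.8% and 49.7% in D2-1 and D2-2, and its part in these values was not tested. Without Ctrl-3 the D2 value was -1.81 (adjusted p = 0.0372), and without Ctrl-2 the D0 value was 0.42. With the replicate number as a block no gene was called in D0.

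Of the 5 members tested in neutrophil-like cells, Csf1r was the one called. Its log2 fold change in D2 was -2.57 (SE 0.52, adjusted p = 0.0301), where the test called 2.96% of 4557 genes (0.527% higher, 2.44% lower). In D0, where 0.11% of genes passed (0.0219% higher, 0.0878% lower), its value was -1.29 (adjusted p = 0.29). Its level was 1275 and 645 CPM in Ctrl-2 and Ctrl-3 and 188 and 72.6 CPM in D2-1 and D2-2. As a percent of the microglia-like level, Csf1r and the median of the microglial markers fell in the same order of these libraries. Csf1r lay above that median but within the range of the 12 markers in each of them. The part of the markers in the result was not tested. Ctrl-1, outside the test with 15 such cells, did not share the high Ctrl level. In its cluster 14 Csf1r stood at 122 CPM (12 cells, 4 UMIs), below 483 and 186 CPM in cluster 14 of D2-1 and D2-2. The call was lost without Ctrl-2 (-2.19, adjusted p = 0.167), D2-1 (-3.11, adjusted p = 0.0579) or D2-2 (-2.0, adjusted p = 0.282).

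**Figure D5:**
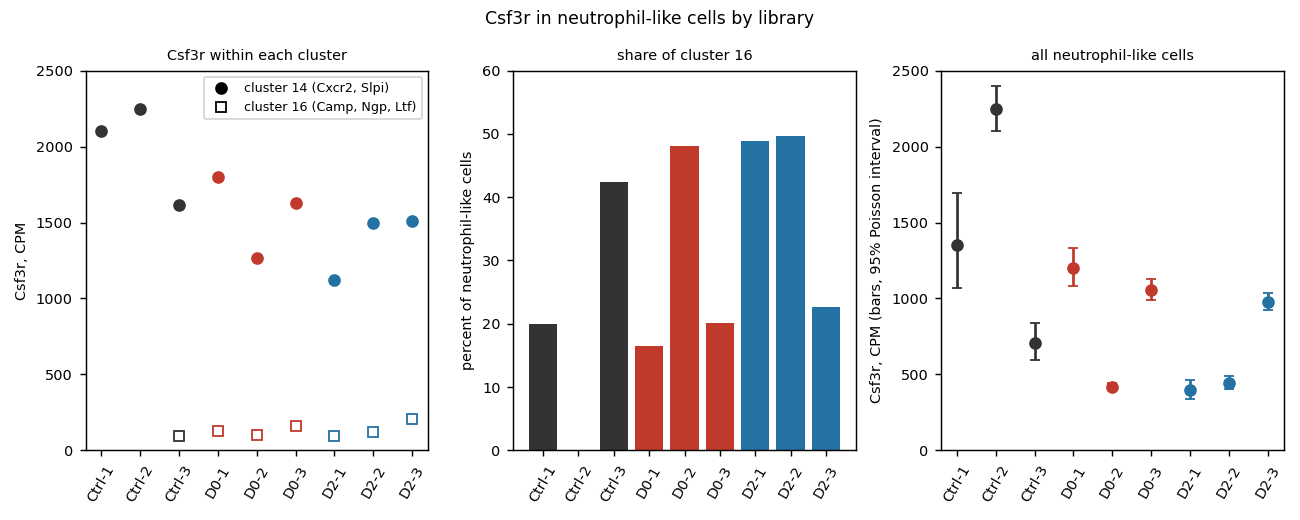
Csf3r by library in the 2 clusters of neutrophil-like cells (left, CPM), the percent of neutrophil-like cells that were of cluster 16 (middle) and Csf3r over the whole class with its 95% Poisson interval, which covers counting error only (right). Cluster 14 lies between 1120 and 2248 CPM and cluster 16 between 91.7 and 204 CPM, while the share of cluster 16 runs from 0.0% to 49.7%.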

How the data were processed

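CD11b+ cells of 9 libraries (3 Ctrl, 3 D0, 3 D2) were profiled by 10x Genomics 3′ single-cell RNA sequencing. The authors aligned and counted the reads with Cell Ranger against mm10, and deposited matrices of UMI counts per gene and barcode. The submitters' processing notes name version 3.1.0, whereas the file headers name 3.0.2 for 6 libraries.

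As in the study, a barcode was kept if its UMIs numbered 500 to 20000, its detected genes 200 or more, and its mitochondrial share did not exceed 10%. No doublet caller was run. Cells of 8 libraries were clustered (3000 variable genes without the 9 members and 67 pathway genes, 10 principal components, Leiden resolution 0.6, leidenalg 0.10.2), classes were named from marker lists, and cells of D2-3 were placed by their 30 nearest neighbours. The study tested single cells, whereas here UMI counts were summed per library and class and tested with edgeR 4.0.16 (R 4.3.3; TMM, filterByExpr, glmQLFit, glmQLFTest, Benjamini-Hochberg over all genes tested, called at an adjusted p under 0.05). DESeq2 1.42.0 was an alternative. SE and 95% intervals are on the log2 scale. The intervals use a normal quantile, so with this few libraries they are narrower than the quasi-likelihood test implies. A library entered a test of microglia-like or neutrophil-like cells with at least 20 cells of the class. For border-associated macrophage-like cells this was lowered to 10 after the data were seen, since 20 left 1 library of D0 and 1 of D2. Shares of cells with a UMI used cells thinned to 2000 UMIs, leaving out 467 Ctrl, 308 D0 and 397 D2 cells. Likeness is Pearson's r of log2(CPM + 10). Scripts were tested on simulated data.

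The members, marker lists and pathway list were chosen with earlier results of these data known. The 9 members were named in every comparison. From the pathway list, each comparison of microglia-like cells named the 5 called genes that rose most and the 5 that fell most, and the most alike genes were 5 for Csf1r (at least 100 CPM) and 3 for each other member that reached 20 CPM in a class. Some genes that this rule names are not reported here. In Ctrl and D0, deviations from the group means correlated in each of 3 pairs of like number (r = 0.42, 0.19 and 0.17). Pairs of unlike number ran from r = -0.39 (Ctrl-3 with D0-1) to 0.30 (Ctrl-3 with D0-2). The latter exceeded the like-number r of Ctrl-2 and of Ctrl-3, so these values do not establish that the numbers pair Ctrl with D0. In Ctrl and D2 the pairs of like number gave r = 0.05 and 0.08. Nothing in the labels says whether numbers mark a shared day. Promoter windows came from RefSeq.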

Additional observations from a re-analysis of the deposited data

Results flagged for a closer look

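Csf2ra stood at 137 CPM in the microglia-like cells of D2-3, the library outside the tests, above the highest Ctrl library, 95.7 CPM. In the same cells Csf1r (924 CPM), Csf1 (23.6 CPM), Csf2rb (23.3 CPM) and Csf3r (24.7 CPM) lay below the lowest of the other 8 libraries. The 12 microglial markers summed to 9657 CPM there, against at least 19545 CPM in every other library, and 91.2% of these cells were dividing. The part of either in the Csf2ra level was not tested.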

How the results depend on the processing

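Of 723 values recomputed for 56 results, 593 kept their direction and their side of the threshold, or stayed within the limit set for them, 63 counts moved, 33 results lost and 15 gained a call, and 19 changed sign.

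Counts of called genes moved most. In microglia-like cells, D0 against Ctrl called 2445 genes: 1393 when the Cell Ranger version was a term, 504 with D2-3 included, 3843 with no scaling beyond the total count, 1124 without dividing cells and 1350 with thinned cells. D2 against Ctrl called 2301: 1165, 1315, 2645, 1336 and 1434 in the same order. A count within 1.5 times the reported one is taken here as not moved, as is 2645. D2 against D0 called none, 28 with DESeq2 and 39 without the filter on low counts. With thinned cells the Lgals3 comparison called 666 of 2197 and the dividing comparison 3258 of 5074. In neutrophil-like cells D0 called 5 genes (DESeq2 17, no filter 131, at least 50 cells 59) and D2 called 135 (no filter 568, at least 50 cells 511). In border-associated macrophage-like cells D0 called 37 (DESeq2 62, no filter 487) and D2 none (DESeq2 17, no filter 214). The differences from microglia-like cells called 336 in D0 (DESeq2 89, no filter 505) and 79 in D2 (DESeq2 37, no filter 189).

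The replicate block, for a possible pairing of Ctrl and D0, brought the D0 calls to 0 in neutrophil-like and to 0 in border-associated macrophage-like cells. It brought the D2 calls in neutrophil-like cells to 40, where pairing was not established either. Beside Csf2ra in D0 (0.61) it changed no call of a member. Not run were the difference between classes with the block, and that difference and border-associated macrophage-like cells with at least 20 or 50 cells, which leave too few libraries.

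Leaving out 1 library gave 1231 to 2530 calls in D0 and 1103 to 3070 in D2 for microglia-like cells, the lowest without D0-2 and without D2-2. It gave 0 to 59 and 2 to 511 for neutrophil-like cells, 0 to 548 and 0 to 74 for border-associated macrophage-like cells, and 101 to 957 and 45 to 287 for the differences.

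Among members, Csf1r in D0 was 0.14 with the version term and -0.39 with no scaling beyond the total count. Csf1r in D2 lost its call with upper-quartile scaling (-0.49), with 2 groups in the fit (-0.51), with the version term (-0.17), with D2-3 (-0.71), without Lgals3-positive cells (-0.48), without dividing cells (-0.46) and with thinned cells (-0.46), and ranged from -0.62 to -0.40 with 1 library left out. Csf1 in D0 lost its call with D2-3 (1.41). Csf1 in D2 lost it with the version term (1.30), with D2-3 (0.75), with no upper limit on UMIs (0.83) and without Lgals3-positive cells (0.91), and ranged from 1.02 to 1.24 with 1 library left out.

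The other changes of sign were in values not called in the comparison itself. Csf2rb2 in D0 was -0.058 with no upper limit and -0.14 with no scaling beyond the total count (-0.059 to 0.17 with 1 library left out), and in D2 0.26 with the version term and 0.020 with thinned cells (-0.15 to 0.080). Csf3r in D0 was 0.14 with the version term, 0.060 without dividing cells and 0.028 with thinned cells (-0.31 to 0.082), and in D2 -0.34 with D2-3 and -0.040 with no upper limit. Csf2rb in Lgals3-positive cells was -0.044 with thinned cells. Csf1r in dividing cells lost its call with DESeq2 (-0.20) and D2-3 (-0.18), and ranged from -0.26 to -0.16.

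In neutrophil-like cells Csf3r passed in D2 with at least 50 cells (-1.81; -1.81 to -0.54 with 1 library left out) and ran from -0.86 to 0.42 in D0, and Csf1r in D2 ran from -3.11 to -2.0. Csf1r in border-associated macrophage-like cells ran from -1.84 to -0.29 in D0, its difference from -1.56 to -0.26, and D2 passed without the filter (-1.18). The share of cells with a Csf1r UMI was 0.21 percentage points higher in D0 when cells were not thinned. The cause of these changes was not tested. Depth limits the low genes: Flt3, Kit and Il34 had 80, 9 and 1 UMIs in microglia-like cells.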
